A study of Mus musculus with 10 samples.

Results

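Cytochrome P450 genes outside steroidogenesis were examined in RNA-seq values from mice with a Sertoli cell knockout of *Rnf20*, which encodes an E3 ubiquitin ligase for histone H2B. The members are the genes with a cytochrome P450 symbol (Cyp, family number, subfamily letter, gene number), without *Cyp11a1*, *Cyp17a1*, *Cyp19a1*, *Cyp26a1* and *Cyp26b1*. This gave 76 members, of which 43 were among the 17816 genes of the day 7 table and 75 among the 20007 genes of the adult table. There were 42 members in both tables, 33 in the adult table only and 1, *Cyp2d40*, in the day 7 table only. The pattern keeps some genes of steroid and retinoic acid metabolism (*Cyp11b1*, *Cyp11b2*, *Cyp21a1* and *Cyp26c1*), and it misses P450 genes with other symbols, such as *Cyp51*.

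The study sequenced RNA of adult testis and of Sertoli cells, which nurse the germ cells within seminiferous tubules. At 7 days after birth, 2 samples carried the genotype Rnf20 Flox/Flox, which the labels call WT, and 2 samples the genotype Amh-Rnf20-/-, which the labels call RNF20 conditional knockout. In adult testis, 3 samples were labelled WT and 3 RNF20 conditional knockout. The label on growth names adult tissue for every sample, and the titles and the methods place the Sertoli cell samples at day 7. All samples were untreated, and no strain is given. In the knockout, Cre recombinase under the *Amh* promoter, active in Sertoli cells, deletes floxed exons of *Rnf20*, so that germ cells and interstitial cells keep the gene. The day 7 cells were adherent cells cultured overnight and passaged, so they need not be pure. The methods name 3 mice for each day 7 group, of which 2 samples each were analysed here, and the text of the study does not describe the adult RNA-seq. P-values measure the spread between these samples.

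Cytochrome P450 enzymes are heme proteins that insert an oxygen atom into a substrate, with electrons delivered by P450 oxidoreductase in the endoplasmic reticulum or by ferredoxin in mitochondria. Families CYP1 to CYP3 are best known for the oxidation of drugs and foreign compounds, and CYP4 enzymes for the hydroxylation of fatty acids and eicosanoids. Other members handle single sterol, bile acid or vitamin D steps. Most are known from the liver, and in testis several are known from Leydig cells, the interstitial cells that make androgens.

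Rounded counts summed to between 17477268 and 17705347 per day 7 sample and between 15431912 and 16574144 per adult sample. *Rnf20* had FPKM values (fragments per kilobase, scaled to the library total) of 16.6 and 16.01 in Rnf20 Flox/Flox and 10.3 and 12.6 in Amh-Rnf20-/- cells, a log2 difference of -0.49 that did not pass the test (adjusted p = 0.222). In adult testis *Rnf20* was at 4.89, 3.32 and 4.09 in WT and at 9.16, 5.76 and 9.85 in the samples labelled knockout (log2 fold change 0.12, adjusted p = 0.688). With total-count scaling it was 0.97 (adjusted p = 0.0168). The adult values therefore did not show the lower *Rnf20* that the label implies, and these libraries are called by their label throughout. Germ cells keep the gene, so whole testis is an indirect check. Among the adult samples labelled knockout, replicate 1 stood apart. Its 8 spermatocyte markers summed to an FPKM of 2.65, against 94.8 and 165 in replicates 2 and 3 and 495 to 527 in WT. Of these 8 markers, 0 fell past the thresholds, and 8 lay wholly below WT on scaled counts (43.1% of all genes tested did). The 9 spermatid markers, of which 6 fell past the thresholds, summed to 124473 to 193339 in WT and to between 2.21 and 78.2 in the samples labelled knockout. The 10 Sertoli cell markers, of which 2 rose and 1 fell, summed to 551 to 719 and to 2841 to 5681, lowest in replicate 1 of that label. Most of this sum was *Clu*, at 450 to 564 in WT and at 1857, 4411 and 4953 in replicates 1, 2 and 3 of the label. Other markers differed, with *Sox9* lowest in replicate 1 (1.2, 9.86 and 12.65) and *Inha* highest there (766, 245 and 368). Sums of 8 Leydig cell markers, in turn, were 4067 to 5656 in WT and 65460 to 90283 in the samples labelled knockout, and 8 of 8 rose. Summed markers of stromal fibroblasts (6 of 6 rose) went from 40.5 to 53.4 in WT to 1303 to 3390, and those of macrophages (7 of 8 rose) from 46.3 to 52.0 to 886 to 1180. Of all genes tested, 23.0% rose. Peritubular myoid markers (4 of 7 rose and 1 fell) summed to 343 to 409 in WT and 463 to 677. Most of the WT sum was *Actg2*, the marker that fell. It was at 255, 335 and 278 in WT and at 1.67, 2.22 and 3.6 in the samples labelled knockout, so the sums understate the rise of the others. Endothelial markers (2 of 6 rose) summed to 2.80 to 3.42 and 29.75 to 48.0, and spermatogonium markers (2 of 6 rose, 0 fell) to 52.2 to 65.7 and 46.7 to 366. Hepatocyte markers summed to 5.61 to 6.39 and 9.26 to 20.1, with 1 of 3 tested that rose, and epididymis markers reached at most 0.53. In bulk tissue, fewer cells of a type and less RNA per cell cannot be told apart. The part of these cell types in the results below was not tested.

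Promoter sequences are shown for the members on which the results turn. *Cyp4f39*, *Cyp4f37* and *Cyp4f15* are neighbours that went in different directions in adult testis. *Cyp2a12* went from the highest mean FPKM of all members in adult WT to 0 counts. For *Cyp1b1*, the samples of the knockout label lay above the controls in both tables, as they did for other members named below. Each sequence is the 150 bases before the start site in RefSeq's table for GRCm38.p6, 5′ to 3′ on the gene's strand, with motif matches in capitals. For *Cyp4f39* and *Cyp4f15* that start site lies inside the gene's outer bounds.
Cyp1b1: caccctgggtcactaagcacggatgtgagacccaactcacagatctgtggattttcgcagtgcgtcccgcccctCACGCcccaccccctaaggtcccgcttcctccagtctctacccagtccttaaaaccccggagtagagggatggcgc
Cyp4f39: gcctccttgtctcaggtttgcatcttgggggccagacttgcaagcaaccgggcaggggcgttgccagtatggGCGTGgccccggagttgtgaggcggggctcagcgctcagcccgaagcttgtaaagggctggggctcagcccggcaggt
Cyp4f37: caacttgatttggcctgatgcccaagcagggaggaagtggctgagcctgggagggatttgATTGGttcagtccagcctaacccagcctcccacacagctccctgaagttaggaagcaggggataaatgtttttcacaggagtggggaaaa
Cyp4f15: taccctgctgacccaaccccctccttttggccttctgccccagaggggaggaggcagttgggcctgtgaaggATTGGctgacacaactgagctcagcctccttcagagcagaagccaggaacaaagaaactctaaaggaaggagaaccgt
Cyp2a12: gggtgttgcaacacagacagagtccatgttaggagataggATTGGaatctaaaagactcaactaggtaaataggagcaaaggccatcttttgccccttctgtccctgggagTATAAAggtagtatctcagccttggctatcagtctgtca
The windows lie at chr17:79715062-79715211 on the minus strand for *Cyp1b1*, and on the plus strand at chr17:32452573-32452722 for *Cyp4f39*, chr17:32621169-32621318 for *Cyp4f37*, chr17:32685509-32685658 for *Cyp4f15* and chr7:27028940-27029089 for *Cyp2a12*.

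The motifs were searched on both strands, and none of them contains another. The core of the xenobiotic response element, to which the aryl hydrocarbon receptor binds, was taken as GCGTG. The box that places the start of transcription in many tissue-specific genes was taken as TATAAA. A single repeat of the element bound by nuclear receptors was taken as AGGTCA. The core of the element that answers to cyclic AMP was taken as TGACG, and the box bound by the factor NF-Y as CCAAT. *Cyp1b1*, a textbook target of the aryl hydrocarbon receptor, held the xenobiotic core 76 bases before the start in reverse complement, and *Cyp4f39* held it 78 bases before the start. *Cyp2a12* held the TATA box 39 bases and the NF-Y box, in reverse complement, 110 bases before the start. *Cyp4f37* and *Cyp4f15* held the NF-Y box in reverse complement at 90 and 78 bases. A promoter of 300 bases (250 before and 50 after the start) was found for 60 of the 76 members. The xenobiotic core GCGTG was in 26.7% of these 60, against 35.2% of all 27025 promoters of the table. The string TATAAA was in 38.3%, against 15.7%. AGGTCA was in 15 of the 60, against 18.1% of all promoters. TGACG was in 3 of the 60, against 23.0%, and CCAAT in 30 of the 60, against 41.1%. Of the 10 members with a promoter that rose in adult testis, 6 held the xenobiotic core, 7 the NF-Y box, 2 the cyclic AMP core and 0 the TATA box or the nuclear receptor repeat. Of the 6 members that fell, 2 held the xenobiotic core, 4 the NF-Y box, 2 the TATA box and 0 the cyclic AMP core or the nuclear receptor repeat. A match is a string of letters and not a site in use.

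The adult comparison asks how P450 transcripts differ in testis of the knockout label. Of 75 members listed, 32 had an FPKM of at least 0.5 in 3 samples and were tested. Past the study's thresholds, an adjusted p-value under 0.001 and a log2 fold change over 1, were 19 of the 32 (59.4%), against 46.7% of the 15919 genes tested. There were 13 that rose (23.0% of all genes tested did) and 6 that fell (23.7%). At an adjusted p under 0.05 without a fold limit there were 30 of 32 (81.5% of all genes tested), and at an unadjusted p under 0.05 also 30 (82.6%). DESeq2 called 28 of the 32, and 64.5% of all genes tested. The 32 members had a median log2 fold change of 1.87, beside 0.01 over the whole set of genes tested. With no filter, over all 75 listed members, the median was -0.72. On scaled counts, 17 members had every sample labelled knockout above every WT sample, 12 had every one below and 3 overlapped (85.5% of all genes tested did not overlap). A member that passed the filter through 1 group had to differ, so these counts describe the tested members alone. The other 43 stayed under the filter, with a highest FPKM in any sample of 2.17 (*Cyp2a5*, named for its value), and 24 of the 75 had at most 3 counts in every sample.

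The call count changed when any 1 sample was left out, in fits that also had fewer samples. It was 9, 7 and 8 without WT replicates 1, 2 and 3, and 11 and 12 without replicates 2 and 3 of the knockout label, while without the outlying replicate 1 of that label it was 26. The share of all genes called in these fits is not given here, so the counts describe the members alone. *Cyp2a12*, *Cyp46a1*, *Cyp2j6*, *Cyp4f13*, *Cyp4f14* and *Cyp4v3* kept their call whichever 1 sample was left out, and the other 13 called members each lost it at least once with no change of direction. Fold changes below are from TMM-scaled counts. FPKM values use the total count, a scale on which the middle gene of the table lies at a log2 fold change of 0.87, so that FPKM ratios in adult testis run above the fold changes given.

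The adrenal steroid P450s contain the largest rise. *Cyp21a1* (chr17:34801348-34804426), the 21-hydroxylase of corticosteroid synthesis, had FPKM values of 0.87, 1.69 and 4.42 in WT and 341, 235 and 200 in the samples labelled knockout. The groups were far apart, and the fold change was 5.96 ± 0.71 (log2 ± SE, n = 3 per group), or 62.2-fold (edgeR adjusted p = 0.000401). Without WT replicate 3, the highest control, it was 6.79. A near-identical pseudogene copy of the gene is known in mouse, which can make the assignment of reads uncertain. Of the 6 adult counts of *Cyp21a1*, 0 were fractions. This does not settle the assignment, since reads of a copy absent from the reference genes would count whole. *Cyp11b1* and *Cyp11b2*, the last enzymes of glucocorticoid and mineralocorticoid synthesis, had at most 2 counts in any adult sample. The large rise in this role group was thus that of *Cyp21a1* alone, beside the 8 Leydig cell markers that rose.

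Members of sterol and bile acid metabolism went both ways. *Cyp27a1* (chr1:74713148-74737897), the mitochondrial sterol 27-hydroxylase, was at 3.49, 2.88 and 2.70 FPKM in WT and at 139, 78.1 and 86.0 in the samples labelled knockout. It rose by 4.23 ± 0.32 on the log2 scale (adjusted p = 7.5e-05). *Cyp46a1* (chr12:108334268-108362234), the cholesterol 24-hydroxylase known from brain, was at 6.17, 5.39 and 7.37 and at 0.92, 1.21 and 1.19, and fell by 3.40 ± 0.21 (adjusted p = 4.3e-05). *Cyp7b1*, the oxysterol 7-alpha-hydroxylase, lay at 0.03 to 0.35 and at 2.13 to 2.76 with a log2 difference of 3.14 that did not pass the threshold (adjusted p = 0.00616). *Cyp39a1*, the 24-hydroxycholesterol 7-alpha-hydroxylase, and *Cyp7a1*, the rate-limiting enzyme of bile acid synthesis in liver, did not pass either (log2 differences of -0.71 and 1.21, adjusted p of 0.0321 and 0.306). On FPKM *Cyp39a1* overlapped, at 2.14, 2.63 and 2.80 in WT and 3.19, 2.82 and 2.21 in the samples labelled knockout, with the higher mean in the latter, so that its direction turned with the scaling. *Cyp8b1*, which directs bile acids to cholic acid, was under the filter. Of 6 members listed, then, 1 rose, 1 fell, 3 did not pass and 1 was not tested.

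Vitamin D and retinoic acid members were low. *Cyp2r1* (chr7:114550123-114563048), the vitamin D 25-hydroxylase, was at 2.42, 3.16 and 3.75 FPKM in WT and at 0.61, 1.38 and 1.35 in the samples labelled knockout. The groups did not overlap, and the log2 difference of -2.55 ± 0.41 missed the threshold (adjusted p = 0.00138). *Cyp27b1* and *Cyp24a1*, which activate and degrade the hormone, reached at most 0.23 and 0.30 FPKM. *Cyp26c1*, a retinoic acid hydroxylase, had at most 3 counts in any adult sample.

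*Cyp1b1* (chr17:79706940-79715061), an oxidase of estrogens and polycyclic aromatic compounds, was the tested member of the CYP1 family. Its FPKM values were 4.94, 4.90 and 5.09 in WT and 30.3, 18.6 and 24.4 in the samples labelled knockout, and it rose by 1.69 ± 0.21 on the log2 scale (adjusted p = 0.000478). The WT samples were nearly equal, and the 3 other samples all lay above them. *Cyp1a1* and *Cyp1a2*, its relatives known for induction by dioxin, were under the filter.

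Of the fatty acid epoxygenases of the CYP2J subfamily, *Cyp2j6* (chr4:96516138-96564305) and *Cyp2j9* (chr4:96568424-96592523) rose together. *Cyp2j6* was at 0.31, 0.33 and 0.26 FPKM in WT and at 10.1, 9.27 and 7.66 in the samples labelled knockout (log2 fold change 4.10 ± 0.24, adjusted p = 4.1e-05). *Cyp2j9* was at 0.18, 0.22 and 0.11 and at 7.55, 5.55 and 3.81 (4.20 ± 0.46, adjusted p = 0.000286). Both were under 1 FPKM in every WT sample. The fatty acid hydroxylase *Cyp2u1* overlapped on FPKM (0.74 to 0.96 against 0.56 to 0.92) and gave a log2 difference of -0.999 on scaled counts (adjusted p = 0.0231).

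The 4 tested CYP2C members, fatty acid epoxygenases and drug oxidases in other tissues, all had lower fitted values in the samples labelled knockout. Of the 4, 1 passed the thresholds, near the 23.7% of all genes tested that fell. On scaled counts 3 lay wholly below WT (43.1% of all genes tested did) and 1 overlapped. *Cyp2c65* fell: it had 69 counts over the WT samples and 1 count over the samples labelled knockout, a ratio of 121 with a counting interval of 20.96 to 4837 (exact, 95%, counting error only), with an adjusted p of 0.000344. The 1 count was in replicate 2 of the knockout label, and the fitted log2 value of -6.36 was -7.90 without that replicate. *Cyp2c65* lost the call without any 1 of 5 of the 6 samples and with limma on log2(FPKM + 1), at -0.84. *Cyp2c29* had FPKM values of 0.71, 2.15 and 4.47 in WT and 0 counts in the other group, at least 35.5-fold lower against a floor of 3 counts per library, and its adjusted p was 0.00435. *Cyp2c55* was at 0.45, 12.9 and 11.2 in WT and at 0.08, 0.89 and 1.38 in the samples labelled knockout. WT replicate 1 was low for this gene and overlapped the other group (log2 difference -4.28 ± 1.34, adjusted p = 0.0236, with a range from 0.000331 to 0.126 over the alternatives). Without replicate 1 of the knockout label the value was -3.63, and with limma on log2(FPKM + 0.1) it was -2.75. *Cyp2c23* was at 0.54 to 1.52 and at 0.07 to 0.14 (-4.09, adjusted p = 0.00101). Of 13 members of the subfamily listed, 9 were under the filter, and *Cyp2c37*, *Cyp2c50*, *Cyp2c67* and *Cyp2c69* had counts that were not whole, from reads shared with other genes.

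The CYP2D members *Cyp2d22* and *Cyp2d26* lie on chromosome 15 and went opposite ways. *Cyp2d22* (chr15:82370527-82380260) was at 2.19, 2.12 and 2.64 FPKM in WT and at 46.4, 42.7 and 25.3 in the samples labelled knockout, and rose by 3.20 ± 0.30 on the log2 scale (adjusted p = 0.000153). *Cyp2d26* (chr15:82790107-82794452) was at 18.4, 15.95 and 17.9 in WT and at 0, 0.80 and 1.21. The sample at 0 was replicate 1 of the label, the library with the lowest spermatocyte sum. The log2 difference of -5.57 ± 0.83 just missed the threshold (adjusted p = 0.00106), and without that replicate *Cyp2d26* was called, at -4.87.

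*Cyp2a12* (chr7:27029090-27036818), a steroid hydroxylase known from liver, was the member with the highest mean FPKM in adult WT testis. Its FPKM values of 26.3, 29.8 and 21.5 rested on 1798 counts over the WT samples, and it was at 0 counts in every sample labelled knockout. It was at least 350-fold lower against 3 counts per library (adjusted p = 6.4e-05). *Cyp2f2*, *Cyp2s1* and *Cyp2e1*, the tested CYP2 genes outside the subfamilies above, were higher without passing the threshold. *Cyp2f2*, the naphthalene oxidase of lung club cells, was at 7.45, 1.37 and 0.59 in WT and at 38.3, 88.99 and 65.96 (log2 difference 3.51 ± 0.91, adjusted p = 0.0115). *Cyp2s1*, an extrahepatic P450, was at 0.69, 0.52 and 0.36 and at 2.34, 9.94 and 11.5 (3.03 ± 0.63, adjusted p = 0.00448). In both of these genes replicate 1 of the knockout label was the lowest of its group, and without it both passed the thresholds, at 3.89 and 3.59. Without WT replicate 1, the highest control for *Cyp2f2*, the difference of that gene was 5.14. *Cyp2e1*, the ethanol oxidase, was at 0.16 to 0.41 and at 1.81 to 2.42 (2.05, adjusted p = 0.00282).

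*Cyp3a13* (chr5:137892933-137925610), a drug oxidase and the tested member of the CYP3A subfamily, was at 6.71, 4.84 and 6.57 FPKM in WT and at 2.98, 3.76 and 3.90 in the samples labelled knockout, and fell by 1.62 ± 0.16 on the log2 scale (adjusted p = 0.000187). With total-count scaling the value was -0.77 and lost the call. Every count of this gene was a fraction before rounding, so reads shared with other genes enter it.

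Of the 9 CYP4 family members tested, 6 rose (23.0% of all genes tested did) and 2 fell (23.7% did), so the family held 6 of the 13 rises. *Cyp4f13* was at 1.62, 1.97 and 1.77 FPKM in WT and at 36.0, 25.4 and 32.5 in the samples labelled knockout (log2 fold change 3.28 ± 0.22, adjusted p = 5.7e-05). *Cyp4f14*, a leukotriene B4 hydroxylase, was at 0.48, 0.55 and 0.76 and at 14.9, 13.1 and 15.9 (3.83 ± 0.22, adjusted p = 3.9e-05). *Cyp4f15* was at 0.52, 0.86 and 1.39 and at 25.8, 20.6 and 21.8 (3.86 ± 0.35, adjusted p = 0.000131). In these 3 genes every WT sample was under 2 FPKM and every other sample above 13. *Cyp4f16* and *Cyp4f17* rose by 2.92 and 3.61 from means of 0.433 and 0.243. *Cyp4v3* (chr8:45305801-45333163), the ortholog of the human gene mutated in Bietti crystalline dystrophy, went from 0.28 to 0.33 in WT to 10.5 to 13.1 (4.37 ± 0.21, adjusted p = 3.0e-05).

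Against them, *Cyp4f39*, an omega-hydroxylase of very long chain fatty acids known from skin, fell. It was at 11.2, 13.6 and 12.6 FPKM in WT and at 0.06, 0.63 and 0.40 in the samples labelled knockout (log2 fold change -5.91 ± 0.63, adjusted p = 0.000247), with replicate 1 the lowest. The value was -5.28 without that replicate and -6.62 without replicate 2 of the label. *Cyp4f37* was at 0.71, 1 and 1 FPKM in WT with 106 counts in all, and at 0 counts in the other group, at least 20.7-fold lower (adjusted p = 0.000414), and it lost the call with limma on log2(FPKM + 1), at -0.92. *Cyp4b1*, known from lung, was at 0.36, 0.63 and 0.48 FPKM in WT and at 0.80, 0.78 and 0.70 in the samples labelled knockout. The groups were apart on FPKM, higher in the knockout label, and overlapped on TMM-scaled counts, where the log2 difference was -0.23 (adjusted p = 0.546), so that its direction turned with the scaling.

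*Cyp20a1* (chr1:60343300-60388060), an orphan P450 without an established substrate, was at 1.25, 0.81 and 0.77 FPKM in WT and at 18.7, 14.6 and 13.3 in the samples labelled knockout. It rose by 3.25 ± 0.28 on the log2 scale (adjusted p = 0.000121). Of its 6 adult counts, 5 were not whole.

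**Figure D1:**
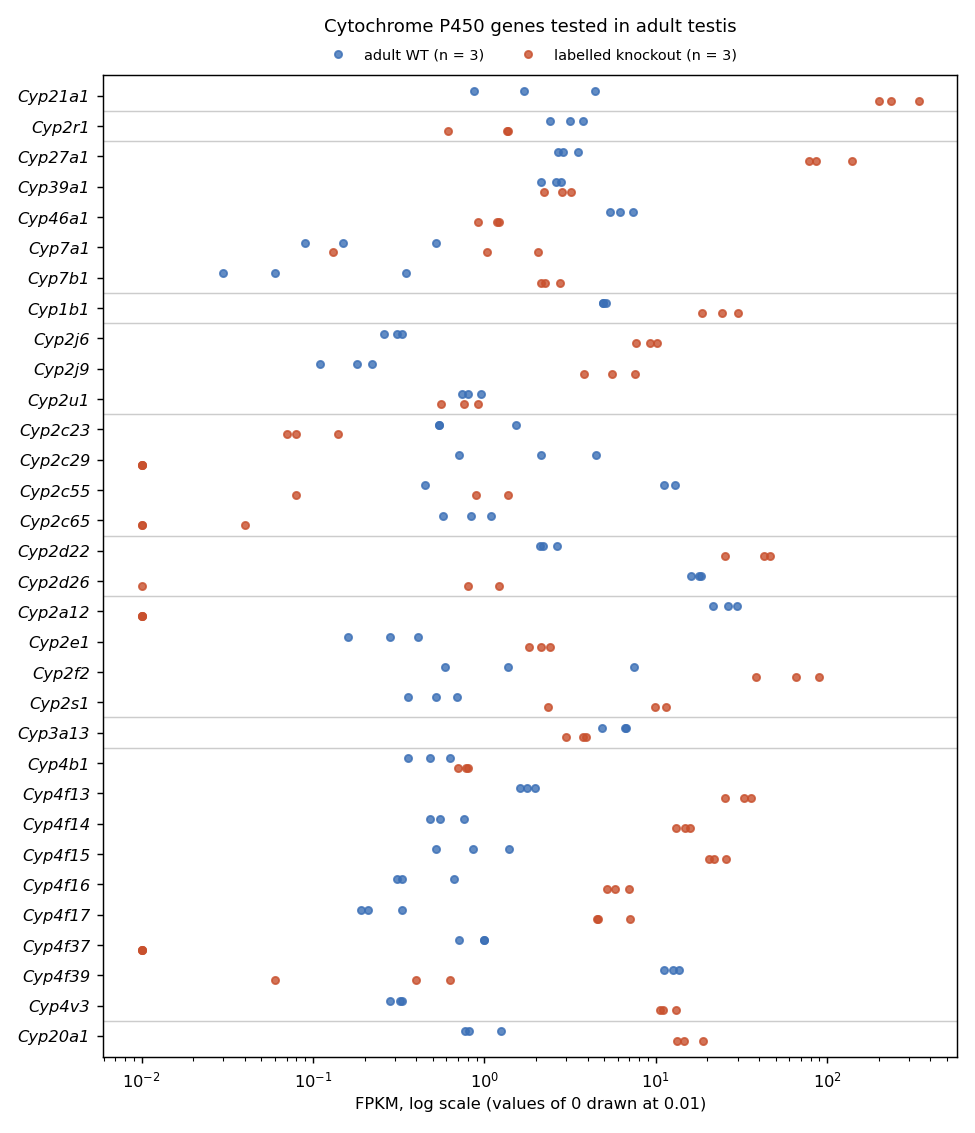
FPKM (log scale, values of 0 drawn at 0.01) of the 32 members tested in adult testis, 1 point per sample, with 3 WT samples in blue and 3 samples labelled knockout in orange; grey lines separate roles. *Cyp21a1* is the farthest to the right in orange, at 200 to 341, and *Cyp2a12* goes from 21.5 to 29.8 in blue to 0.

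In 1 of the gene groups, called neighbours differed in direction in adult testis. The Cyp4f genes on chromosome 17 (GRCm38.p6) span 495 kb with 8 listed members. *Cyp4f39*, at chr17:32452697-32493320, fell, and *Cyp4f17*, at chr17:32506192-32530158 and 12871 bases from it, rose. Further along, *Cyp4f16* rose and *Cyp4f37* fell, *Cyp4f40* was not tested, and *Cyp4f15*, *Cyp4f14* and *Cyp4f13* rose. On chromosome 7 a group of Cyp2 genes, from *Cyp2s1* to *Cyp2t4*, spans 1356 kb with 11 listed members, and *Cyp2r1* and *Cyp2e1* lie outside it. In the group *Cyp2a12* fell and *Cyp2f2*, 83136 bases away, was higher without passing the thresholds. On chromosome 4, *Cyp2j6* and *Cyp2j9* lie 4118 bases apart and both rose. On chromosome 19, the tested Cyp2c members *Cyp2c55*, *Cyp2c65*, *Cyp2c29* and, farther along, *Cyp2c23* had lower fitted values. Of these, *Cyp2c65* alone passed the thresholds (23.7% of all genes tested fell), and *Cyp2c55* overlapped between the groups.

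**Figure D2:**
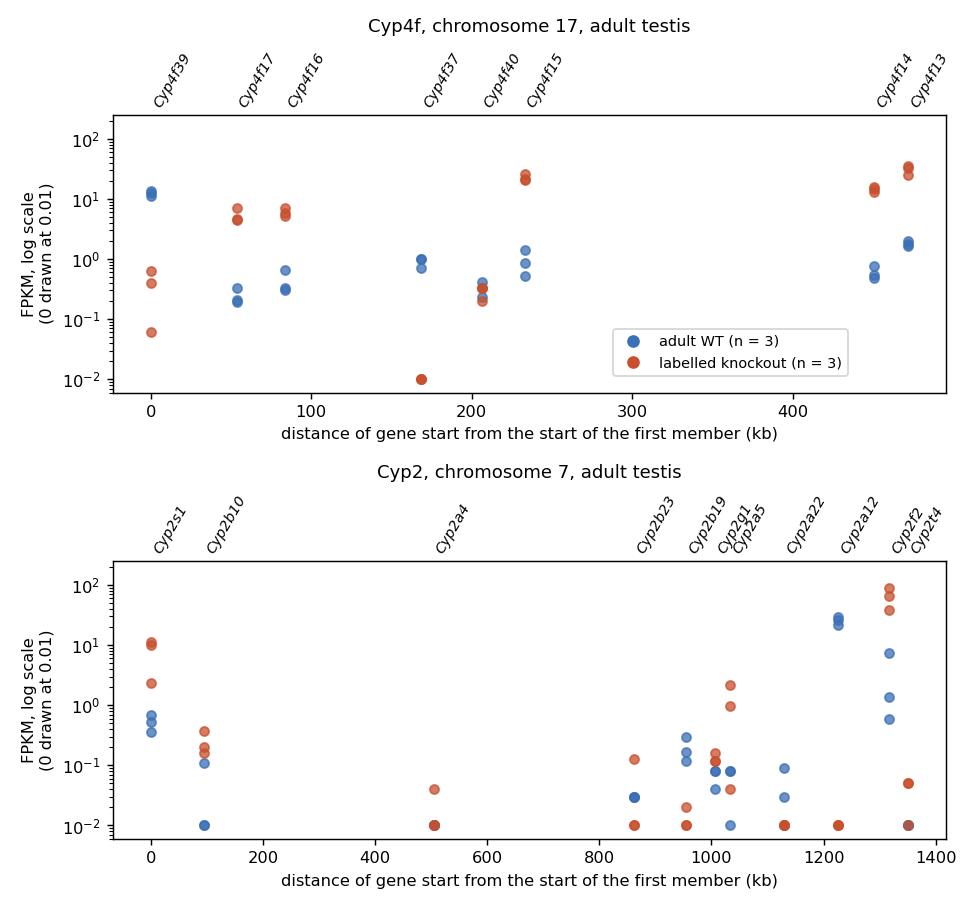
Adult FPKM (log scale, 0 drawn at 0.01) of the listed members of the Cyp4f group on chromosome 17 and the Cyp2 group on chromosome 7 against the distance of each gene's start from that of the first member in kilobases, 1 point per sample, WT blue and knockout label orange. Among the tested members, orange lies below blue at *Cyp4f39*, *Cyp4f37* and *Cyp2a12*, and above it at *Cyp4f17*, *Cyp4f16*, *Cyp4f15*, *Cyp4f14*, *Cyp4f13*, *Cyp2s1* and *Cyp2f2*.

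The make-up of the P450 transcripts changed with these genes. The FPKM of all members summed to 107, 116 and 118 in adult WT and to 754, 605 and 553 in the samples labelled knockout. In WT, *Cyp2a12* took 18.3% to 25.6% of that sum, *Cyp2d26* 13.7% to 17.1% and *Cyp4f39* 10.4% to 11.7%. In the samples labelled knockout, *Cyp21a1* took 36.3% to 45.2% and *Cyp27a1* 12.9% to 18.5%. These shares are of FPKM, which is per length, and involve no scaling between samples.

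**Figure D3:**
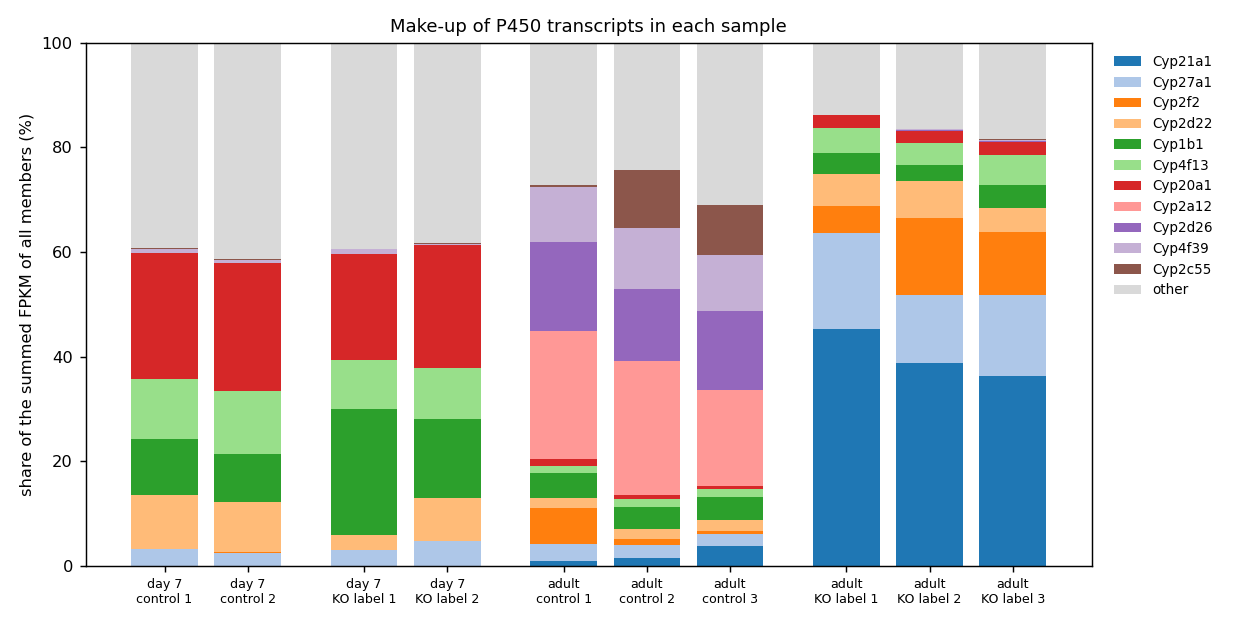
Share (percent) of the summed FPKM of all members taken by 11 of them and by the rest in each of the 10 samples, 1 bar per sample. *Cyp2a12* leads in adult WT, *Cyp21a1* in the samples with the adult knockout label, and *Cyp20a1* or *Cyp1b1* in the day 7 cells.

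The partners of P450 enzymes were taken as lists. Of 10 genes for electron donors and partners tested in adult testis, 7 rose (23.0% of all genes tested did) and 1 fell (23.7% did). Their median was 2.44 on the log2 scale beside 0.01 for all genes tested. Their FPKM summed to 222 to 246 in WT and to 2218 to 3005 in the samples labelled knockout. *Pgrmc1*, a partner and not a donor, was among those that rose, at 43.4 to 55.5 in WT and 679 to 945 in the other group. Of 15 genes for receptors and partners that regulate P450 genes, 11 were tested and 2 rose, a share under the 23.0% of all genes tested. These were *Ahr*, the aryl hydrocarbon receptor, and *Arnt*, its dimer partner, by 2.77 and 1.61. The median over the 11 was 1.61, beside 0.01 for all genes tested. On scaled counts 8 of the 11 lay wholly above WT (42.4% of all genes tested did) and 1 wholly below (43.1% did). Of 8 enzymes that take on epoxide and aldehyde products, 7 were tested and 6 rose, against 23.0% of all genes tested (median 3.23 against 0.01). *Por*, which hands electrons to microsomal P450 enzymes, went from 5.26 to 6.84 FPKM in WT to 44.5 to 73.5 and rose by 2.39. *Fdx1* and *Fdxr*, the mitochondrial chain that serves *Cyp27a1* and the steroidogenic P450 enzymes, rose by 2.003 and 3.33. *Cyb5r2*, a cytochrome b5 reductase, was the donor that fell, from 13.1 to 14.7 FPKM in WT to 0.06 to 0.84. *Pgrmc1*, *Ahr*, *Arnt*, *Por*, *Fdx1*, *Fdxr* and *Cyb5r2* are named after their values were seen.

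In the day 7 comparison of Amh-Rnf20-/- with Rnf20 Flox/Flox cells, no member passed the thresholds. Of 43 members listed, 20 were tested, and 0 of 20 were called by edgeR (0.0% of 12880 genes tested) or by DESeq2, which called 0.998% of the genes it tested. The lowest adjusted p of a member was 0.218 with edgeR (*Cyp4f14*) and 0.00738 with DESeq2 (*Cyp1b1*, log2 difference 1.20). An unadjusted p under 0.05 was found for 4 of the 20, against 15.5% of all genes tested, and these 4 were higher in Amh-Rnf20-/- cells. On scaled counts, 9 members had both Amh-Rnf20-/- samples above both controls, 2 had both below and 9 overlapped (51.0% of all genes tested did not overlap). The median log2 difference was 0.14, beside -0.00 for all genes tested. Without replicate 2 of Amh-Rnf20-/-, the log2 difference was 1.60 for *Cyp1b1* and -1.46 for *Cyp2d22*. That fit assumes the lone remaining sample to vary like the controls, so no call is read from it.

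The cells differed in marker sums too. The FPKM of 10 Sertoli cell markers summed to 1327 to 1463 in Rnf20 Flox/Flox and 853 to 1094 in Amh-Rnf20-/- cells. Those of 7 peritubular myoid markers summed to 2376 to 2515 and 4115 to 4291, those of 6 stromal fibroblast markers to 2152 to 2236 and 3306 to 3920, and those of Leydig cell markers to 156 to 161 and 214 to 302. Most of the Leydig sum was *Cyp11a1*, at 101 and 106 FPKM in the controls and 197 and 136 in Amh-Rnf20-/-. *Lhcgr* and *Cyp17a1* reached at most 0.19 and 0.18, and *Hsd17b3* (7.09 and 5.77, then 1.23 and 8.72) went both ways. All 7 myoid and all 6 stromal markers had both Amh-Rnf20-/- samples above both controls (24.8% of all genes tested did), 0 of them passed the test, and the defining markers of these cell types were thus present in the cells labelled Sertoli. Germ cell markers were lower: 5 of 6 spermatogonium markers (sums of 178 to 189 and 127 to 133) and 4 of 4 tested spermatocyte markers (7.51 to 10.2 and 5.20 to 5.64) had both Amh-Rnf20-/- samples below both controls (26.1% of all genes tested did), and 0 of them passed the test. The part of these cell types in the values below was not tested.

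*Cyp20a1* was the most abundant member per length in both day 7 control samples, at 23.2 and 24.02 FPKM, and was at 24.5 and 23.95 in Amh-Rnf20-/- (log2 difference 0.074 ± 0.084, n = 2 per group). On FPKM the groups overlapped for this gene. *Cyp1b1* was at 10.3 and 9.09 in the controls and at 29.2 and 15.4 in Amh-Rnf20-/- cells (1.19 ± 0.34, edgeR adjusted p = 0.251, with a range from 1.6e-05 to 0.9999 over the alternatives). Both knockout samples lay above the controls, and replicate 1 lay farther from replicate 2 than replicate 2 from the controls.

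Among the sterol and bile acid genes at day 7, *Cyp27a1* was at 3.07 and 2.46 FPKM in the controls and at 3.55 and 4.75 (0.61 ± 0.25, adjusted p = 0.342). *Cyp7b1* was at 2.04 and 1.99 and at 3.44 and 3.11 (0.74 ± 0.19, adjusted p = 0.222). *Cyp46a1* was at 0.78 and 0.69 and at 0.90 and 0.89 (0.33 ± 0.27, adjusted p = 0.615). The groups did not overlap in these 3 genes, all higher in Amh-Rnf20-/- without passing the test. *Cyp39a1* was lower, at 2.88 and 2.75 and at 1.57 and 2.64 (-0.38, adjusted p = 0.585).

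Of the fatty acid genes at day 7, *Cyp4f14* went from 0.19 and 0.18 FPKM to 0.68 and 0.52 (1.57 ± 0.39, adjusted p = 0.218) and *Cyp2j9* from 0.71 and 0.62 to 1.66 and 1.10 (1.09 ± 0.36, adjusted p = 0.292). Both are low, and neither passed the test. *Cyp2j6* was at 4.97 and 5.06 and at 5.61 and 5.33 (0.17 ± 0.11). *Cyp4f13*, at 11.1 and 11.8 and at 11.5 and 10.04, *Cyp4f16*, *Cyp4f17* and *Cyp4v3* overlapped, with log2 differences between -0.05 and 0.05. *Cyp4f39* was at 0.73 and 0.59 and at 1.04 and 0.24, so that its 2 knockout samples lay on either side of the controls.

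*Cyp2d22* was at 10.1 and 9.41 FPKM in the controls and at 3.44 and 8.41 in Amh-Rnf20-/- cells (-0.68 ± 0.43, adjusted p = 0.507), with replicate 1 far below replicate 2. Without replicate 1 of Amh-Rnf20-/- the value was -0.18. *Cyp2s1* was at 3.13 and 3.82 and at 6.71 and 2.44, which overlap. *Cyp11b1*, tested at day 7 only, was at 1.10 and 1.24 and at 2.47 and 1.33 (0.75, adjusted p = 0.416). *Cyp3a13*, *Cyp2u1* and *Cyp2r1* overlapped. The 23 members not tested had a highest FPKM of 0.76, and 18 of the 43 had at most 3 counts in every sample.

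**Figure D4:**
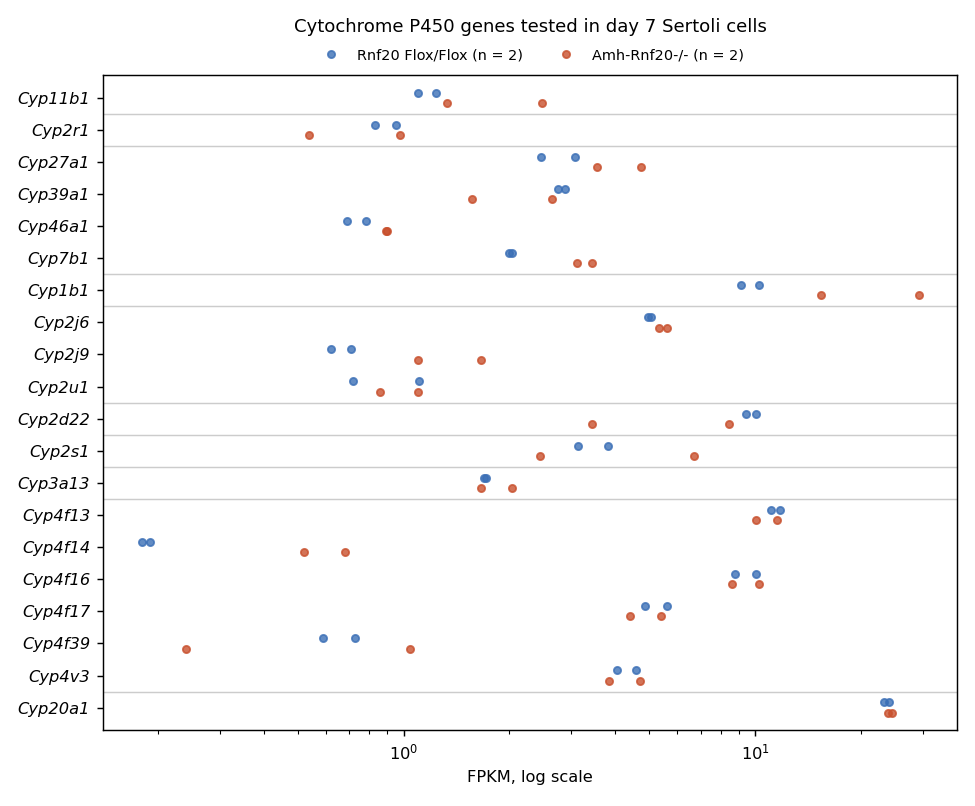
FPKM (log scale) of the 20 members tested in day 7 Sertoli cells, 1 point per sample, 2 Rnf20 Flox/Flox samples in blue and 2 Amh-Rnf20-/- samples in orange; grey lines separate roles. The orange points lie farthest apart on this scale for *Cyp4f39* (1.04 and 0.24) and *Cyp2s1* (6.71 and 2.44), and *Cyp20a1* is the farthest to the right among the controls.

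The FPKM of all members summed to 96.5 and 98.1 in Rnf20 Flox/Flox and to 121 and 102 in Amh-Rnf20-/- cells. *Cyp20a1* took 24.1% and 24.5% of it in the controls, and *Cyp1b1* was first in replicate 1 of Amh-Rnf20-/- with 24.05%. Of the electron donors and partners, 9 were tested at day 7 and 0 were called. Of these 9, 7 had both Amh-Rnf20-/- samples above both controls, where 24.8% of all genes tested did, and the list had sums of 858 to 859 and 922 to 982. Of the regulators 9, and of the follow-on enzymes 6, were tested, and 0 were called.

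Across the tables, which were made and fitted separately, 19 members were tested in both, 13 in adult testis only and 1, *Cyp11b1*, at day 7 only. *Cyp2d22* was lower in both Amh-Rnf20-/- samples at day 7 (-0.68) and rose in adult testis (3.20). *Cyp46a1* was higher in both at day 7 (0.33) and fell in adult testis (-3.40). On scaled counts, *Cyp1b1*, *Cyp20a1*, *Cyp27a1*, *Cyp2j6*, *Cyp2j9*, *Cyp4f14* and *Cyp7b1* lay wholly above the controls in both tables, and *Cyp39a1* wholly below. Of all genes tested, 24.8% lay wholly above at day 7 and 42.4% in adult testis. Wholly below were 26.1% and 43.1%. The difference between the tables was not tested, since cells and whole testis differ in more than age.

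**Figure D5:**
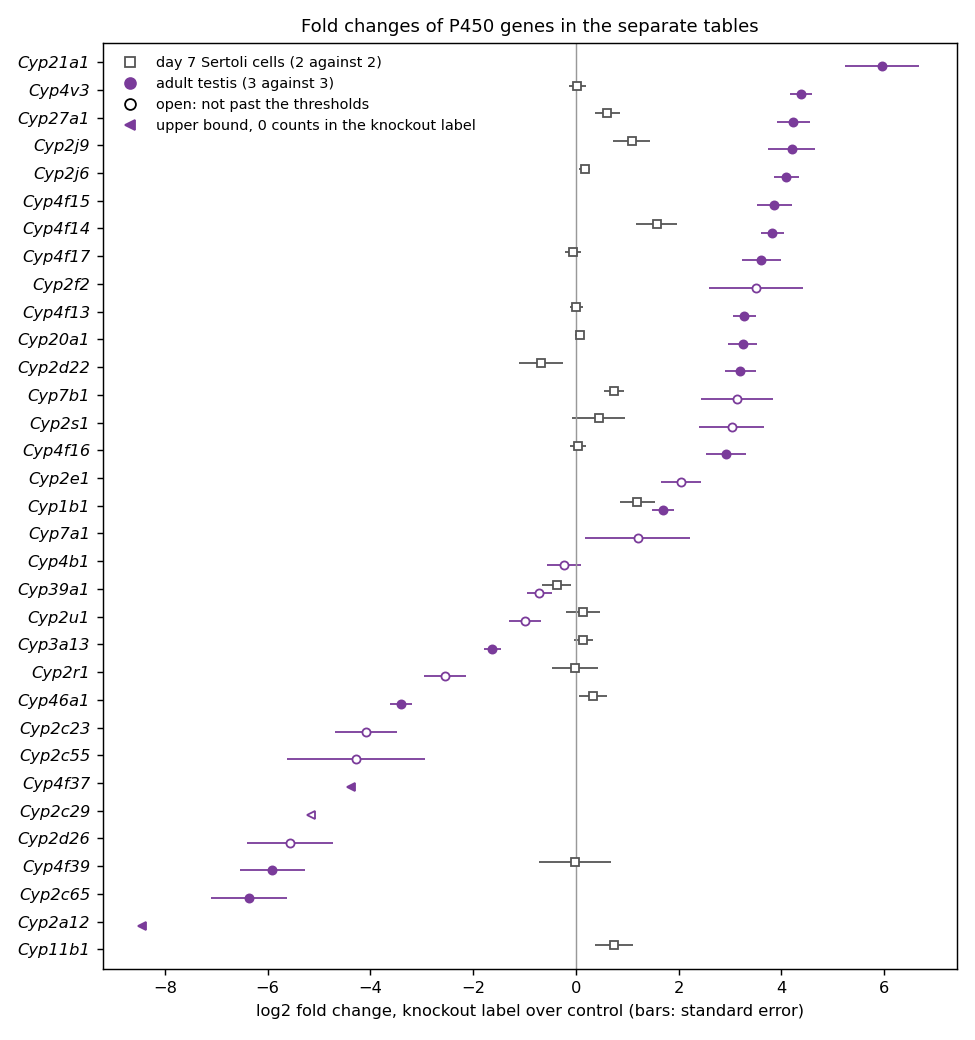
Log2 fold change (x axis, knockout label over control) of each member tested at day 7 (squares) or in adult testis (circles), with the standard error as a bar; open symbols did not pass the thresholds, and triangles mark the bound for members with 0 counts in the knockout label. The adult values run from below -8 for *Cyp2a12* to 5.96 for *Cyp21a1*, and the day 7 values lie between -0.68 and 1.57.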

How the data were processed

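RNA-seq tables of 4 Sertoli cell samples (day 7) and 6 testis samples (adult) were analysed. The authors aligned reads with HISAT (genome, GRCm38.p6) and Bowtie2 (reference genes) and quantified with RSEM; versions and strand are not given in the sources used here. The values used were deposited estimated counts without normalization and FPKM values scaled by the authors to gene length and library total. The deposited TPM values were not used for tests. The adult table also holds 20 unnamed empty columns, not used.

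Counts were rounded and tested by edgeR 4.0.16 (quasi-likelihood, TMM, Benjamini-Hochberg over all genes tested), separately per table, for genes reaching 0.5 FPKM in a number of samples equal to the smaller group. TMM factors were 0.984 to 1.02 at day 7, 0.710 to 0.761 in adult WT and 1.27 to 1.42 in the knockout label. Standard errors are the log2 fold change over the root of the F statistic. The thresholds were an adjusted p of 0.001 and a log2 fold change of 1. At this depth, given in the report, 43 of 75 adult and 23 of 43 day 7 members stayed under the filter. DESeq2 1.42.0 and limma 3.58.1 (on log2(FPKM + 0.1) and log2(FPKM + 1), which understates low genes) were alternatives, with other scalings, filters, a replicate block and each sample left out. The tests were tried on simulated data. R 4.3.3 and Python 3.11.15 with pandas 2.3.3 and scipy 1.17.1 were used.

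Named members are the 12 largest rises and falls past the thresholds without overlap, those with a mean FPKM of at least 5 in a group, and the highest of each role; others were named after their values were seen. Members and lists were chosen with earlier results of these data known. Gene positions and promoters are RefSeq's on GRCm38.p6, matched by symbol.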

Additional observations from a re-analysis of the deposited data

Results flagged for a closer look

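Members with opposite non-overlapping shifts in the separate tables are given here because each sample of the knockout label lay on 1 side of the controls at day 7 and on the other side in adult testis. These were 2 of the 19 members tested in both. Of all genes tested, 24.8% lay wholly above and 26.1% wholly below the controls at day 7, and 42.4% and 43.1% in adult testis. The share of all genes on opposite sides was not counted, so the 2 are not read as particular to the members. For *Cyp2d22*, a CYP2D subfamily gene, the log2 differences were -0.68 at day 7 and 3.20 in adult testis, and the day 7 value was -0.18 without replicate 1 and -1.46 without replicate 2 of Amh-Rnf20-/-. For *Cyp46a1*, the cholesterol 24-hydroxylase, they were 0.33 and -3.40. The difference between the tables was not tested for either gene, and the day 7 values did not pass the thresholds.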

How the results depend on the processing

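In adult testis, the count of 19 called members lay between 17 and 28 for other scalings, filters, DESeq2 and limma, and was 30 with an adjusted p of 0.05 and no fold limit. The share of all genes called is given for the main fit and DESeq2 alone. With each sample left out the count of called members ranged from 7 to 26. With the replicate number as a block it was 0. The correlation of deviations between same-numbered samples was 0.0076, 0.0062 and 0.0273 in adult testis and 0.0316 at day 7. With 2 samples per group, the day 7 values of all pairs can differ in sign alone. The labels name no pairing, and these correlations cannot exclude a shared litter or preparation. The median log2 fold change of 1.87 was 1.67 with median-ratio scaling, 2.71 with total-count scaling, -0.72 with no filter (75 members, most near 0 counts), 3.09 at a mean FPKM of at least 1, 1.68 with DESeq2, 2.41 and 1.43 with limma at pseudocounts of 0.1 and 1, and 1.74 to 2.30 with each sample left out. Of 334 values of the named members, 248 kept direction and call, 72 lost the call, 14 gained it and 0 reversed. At day 7, the count of 0 was 0 to 2 with each sample left out and 0 otherwise, the block included. The median of 0.14 was 0.10 with total-count scaling, 0.16 with no filter, 0.11 and 0.063 with limma, and 0.15 to 0.19 with each sample left out. Of 188 day 7 values, 23 reversed, all of members that were not called and lay near 0 or apart between samples; the cause was not tested. *Cyp4f13* was at -0.032 with total-count scaling, -0.00049 with no filter and -0.088 and -0.081 with limma. *Cyp4f16* was at -0.0014 and -0.0011 with limma, and *Cyp4v3* at -0.0089 with total-count scaling and at -0.016 and -0.013 with limma. With each sample left out, *Cyp4f39* ranged from -1.37 to 0.68, *Cyp2r1* from -0.58 to 0.39, *Cyp2s1* from -0.48 to 0.996, *Cyp3a13* from -0.014 to 0.29, *Cyp4f13* from -0.090 to 0.098, *Cyp4f16* from -0.095 to 0.17, *Cyp4f17* from -0.17 to 0.061 and *Cyp4v3* from -0.13 to 0.17. Depth limits members with few counts.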

Other observations

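*Cyp2a5*, a coumarin hydroxylase of the CYP2A subfamily that stayed under the filter, was at 0.08, 0.08 and 0 FPKM in adult WT and at 0.04, 0.97 and 2.17 in the samples labelled knockout, so that replicate 1 lay with the controls. It was chosen after its values were seen. *Cyp4f18*, known as a leukotriene hydroxylase of neutrophils, had adult mean FPKM of 0.04 and 0.383.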
